A study of Homo sapiens with 6 samples.

Results

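The genes described are 10 regulators of the ubiquitin ligases that time the cell cycle, the anaphase-promoting complex/cyclosome (APC/C) and SCF, among the 60656 genes counted in parental ZR-75-1 cells. They were chosen by symbol as activators, inhibitors, adaptors, receptors and substrates of both ligases: CDC20, FZR1, FBXO5, PTTG1, CDC27, SKP2, CKS1B, CKS2, FBXW7 and CCNF. These genes, and the lists of partners and substrates below, were chosen with earlier results of these data known. All 10 had enough counts to be tested. ZR-75-1 is an oestrogen receptor (ER)-positive human breast cancer line, used here without genetic modification, so all values come from 1 line. A group of 3 libraries came from cells given the vehicle DMSO, and the other 3 from cells given 500 nM abemaciclib, an inhibitor of the cyclin-dependent kinases CDK4 and CDK6, both for 4 days. The study describes its RNA-seq of abemaciclib-treated ZR-75-1 cells as made with 3 independent biological replicates, though without naming these libraries. P values set the difference between the groups against the spread between these libraries. The comparison asks how the transcripts of the ligase machinery differed once CDK4/6 had been inhibited for that time.

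Both ligases attach ubiquitin to cell cycle proteins and so mark them for the proteasome. APC/C is a large assembly that takes its substrates from a coactivator, CDC20 in early mitosis and FZR1 (CDH1) from late mitosis through G1, and it ends mitosis by destroying securin and the mitotic cyclins. SCF is built on a cullin scaffold, and each F-box protein that docks on it brings its own substrates: SKP2 those that hold back S phase entry, FBXW7 growth-promoting transcription factors and cyclin E, and cyclin F a set that includes nucleotide synthesis and centrosome proteins. Many of these regulators are themselves made only in part of the cell cycle. In bulk RNA, fewer cells in a cycle phase and less RNA per cell cannot be told apart.

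The libraries were made from the 3′ ends of polyadenylated transcripts and held between 3317860 and 4013156 counts on genes. Levels are given as CPM, the counts of a gene scaled to a common library total with TMM factors, and a count of 0 in a library allows up to 0.740 to 0.909 CPM, counting error only. All 8 markers of luminal epithelium had counts, with a summed level of 7478 to 7935 CPM in DMSO libraries and 8520 to 9512 CPM in abemaciclib libraries. Most of that sum is KRT19 and GATA3, and the 8 did not move together: ESR1 and KRT19 were called higher, KRT18 was called lower and the other 5 were not called. Of the basal markers KRT5, KRT14 and TP63 had 0 counts, as did the immune markers PTPRC and CD3E, the endothelial markers PECAM1 and CDH5, and 3 of 4 fibroblast markers. The remaining fibroblast marker was COL1A1, and the summed level of that list was 10.4 to 15.8 CPM with DMSO and 10.1 to 15.4 CPM with abemaciclib. MKI67, the common proliferation marker, was at 526 ± 31.4 CPM with DMSO and at 5.00 ± 2.28 CPM with abemaciclib (SD, n = 3), and its log2 fold change (log2FC) was −6.71 ± 0.17 (SE).

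Relative to the library total, transcripts of securin, the APC/C inhibitor FBXO5, the mitotic coactivator CDC20 and cyclin F were far lower with abemaciclib. Those of CKS2, SKP2 and CKS1B were modestly lower. Total RNA per cell was not measured. The G1 coactivator FZR1, the APC/C subunit CDC27 and the SCF receptor FBXW7 were not called. With edgeR (quasi-likelihood test, P values adjusted by Benjamini and Hochberg's method across 10863 genes), 7 of the 10 regulators fell at an adjusted P under 0.05, beside 13.3% of all genes tested, and 0 rose, beside 12.5%. At an unadjusted P under 0.05, and by DESeq2's test, 0 rose as well. DESeq2's test called 6 regulators lower, without SKP2 (adjusted P = 0.0938). The 7 called by edgeR had every abemaciclib library below every DMSO library, an order that 20.1% of all genes tested showed. The reverse order, found for 19.1% of genes, occurred in 0 of the 10. The median log2FC of the 10 was −0.61, where that of all genes tested was −0.00.

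**Figure D1:**
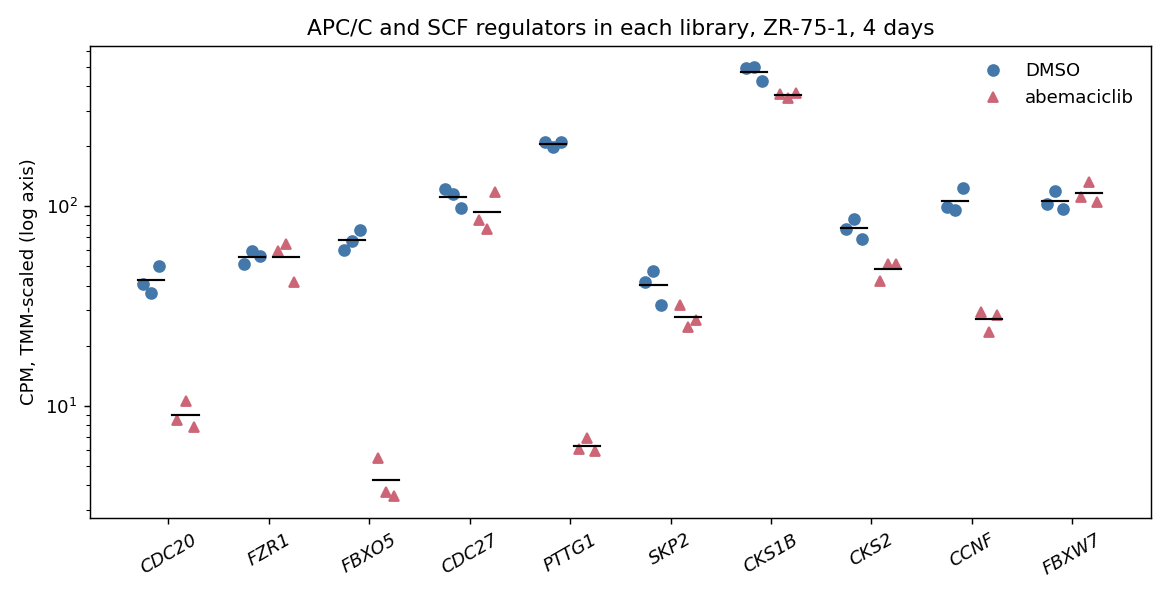
Level of each regulator in every library, in CPM scaled by TMM on a log axis. Circles are the 3 DMSO libraries, triangles the 3 abemaciclib libraries and bars the group means. PTTG1 and FBXO5 show the widest gaps between the groups, and for FZR1, CDC27 and FBXW7 the groups overlap.

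PTTG1 (chromosome 5, 160421855 to 160428739 of GRCh38) encodes securin, the APC/C substrate that holds the protease separase inactive until anaphase. It was at 209, 197 and 209 CPM in the DMSO libraries and at 6.05, 6.91 and 5.94 CPM in the abemaciclib libraries. The libraries of each group lay close together and the gap between the groups was the widest among the 10. The log2FC was −5.01 ± 0.16, 32.2-fold lower with abemaciclib (adjusted P = 4.94e-20), and only 19 of the genes tested had a lower log2FC. Its processed copies PTTG3P and PTTG4P had 0 counts.

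FBXO5 (chromosome 6, 152970519 to 152983579), also called EMI1, is the F-box protein that blocks APC/C through S phase and G2. Its level was 60.3, 66.5 and 76.0 CPM with DMSO and 5.45, 3.70 and 3.51 CPM with abemaciclib. Each treated library was more than 10 times below each control library. The fitted log2FC was −4.01 ± 0.23, 16.1-fold lower (adjusted P = 3.61e-14), with 42 genes falling further.

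Of the 2 coactivators of APC/C, CDC20 fell and FZR1 was not called. CDC20 (chromosome 1, 43358981 to 43363203), which the spindle checkpoint holds inactive until the chromosomes are attached, was at 40.9, 36.8 and 49.98 CPM with DMSO and at 8.47, 10.6 and 7.84 CPM with abemaciclib. Its log2FC was −2.24 ± 0.22, 4.71-fold lower (adjusted P = 6.36e-09). FZR1 (chromosome 19, 3506311 to 3538334), the coactivator of G1, was at 51.0, 59.4 and 56.3 CPM with DMSO and at 59.6, 64.6 and 41.6 CPM with abemaciclib. Its groups overlapped, since abemaciclib replicate 3 was the lowest and abemaciclib replicate 2 the highest of all 6 libraries. The log2FC of FZR1 was −0.01 ± 0.16 (95% interval −0.33 to 0.32, adjusted P = 0.982). Within a library, the log2 ratio of CDC20 to FZR1 counts went from −0.39 ± 0.27 (SD, n = 3) with DMSO to −2.59 ± 0.20 with abemaciclib, a difference of −2.20 (two-sided exact permutation test, P = 0.1, which is the lowest value 3 against 3 libraries can give, and 0.1 after adjustment over 4 ratios).

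Both coactivators carry a doubt about their reads. A processed copy of CDC20 on another chromosome, CDC20P1, held 191 counts over the DMSO libraries and 44 over the abemaciclib libraries, beside 430 and 100 for CDC20, and its log2FC was −2.25 ± 0.35 (adjusted P = 1.42e-05). The sum of both was 61.6 ± 12.8 CPM with DMSO and 12.9 ± 2.24 CPM with abemaciclib (SD, n = 3), so the fall of CDC20 was the same size when the copy was added. The 3′ end of FZR1 overlaps MFSD12 on the opposite strand, which had 3844 counts over the 6 libraries against 1175 for FZR1 and rose by 0.53 ± 0.11 on the log2 scale (adjusted P = 0.000531). Whether the counting used strand is not given in the sources used here, so the level of FZR1 is uncertain.

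FBXO5 binds and restrains APC/C with FZR1, and their levels were compared within each library. The log2 ratio of FBXO5 to FZR1 was 0.28 ± 0.14 (SD, n = 3) with DMSO and −3.67 ± 0.36 with abemaciclib, a difference of −3.95 (exact permutation test, P = 0.1, adjusted P = 0.1). The ratios of CDC20 and of FBXO5 share FZR1 and so are not independent of each other.

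CDC27 (chromosome 17, 47117703 to 47189422) is the APC/C subunit, also called APC3, on which the coactivators dock. It was at 122, 114 and 97.8 CPM with DMSO and at 85.3, 76.7 and 117 CPM with abemaciclib. Abemaciclib replicate 3 lay among the DMSO libraries and the other 2 treated libraries lay below them. The log2FC was −0.26 ± 0.14 (95% interval −0.54 to 0.03, adjusted P = 0.184). Without abemaciclib replicate 3 it was −0.46 ± 0.13, past the threshold (adjusted P = 0.00445), so this 1 library decided the call.

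**Figure D2:**
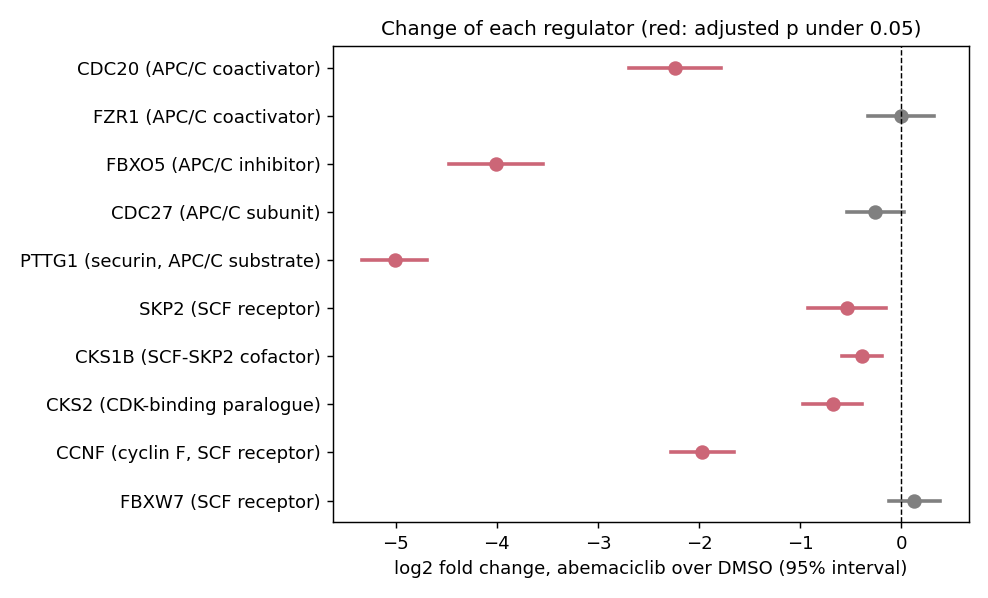
Log2 fold change of each regulator, abemaciclib over DMSO (n = 3 libraries in each group), with its 95% interval and its role. Red marks an adjusted P under 0.05 by edgeR. PTTG1 lies at −5.01 and FBXO5 at −4.01, and the intervals of FZR1, CDC27 and FBXW7 span 0.

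Of the 3 SCF receptors, CCNF and SKP2 fell and FBXW7 was not called. CCNF (chromosome 16, 2429394 to 2458854) encodes cyclin F, the founding F-box protein, and was at 98.6, 95.9 and 123 CPM with DMSO and at 29.3, 23.4 and 28.4 CPM with abemaciclib. All treated libraries lay below all control libraries, with a log2FC of −1.97 ± 0.15, 3.92-fold lower (adjusted P = 3.06e-11).

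SKP2 (chromosome 5, 36151989 to 36196849), the receptor that brings the CDK inhibitor p27 to SCF, was at 41.5, 47.2 and 32.1 CPM with DMSO and at 31.8, 24.7 and 27.0 CPM with abemaciclib. DMSO replicate 3 and abemaciclib replicate 1 nearly met, so the groups were separate by a narrow margin. The log2FC was −0.54 ± 0.19 (95% interval −0.92 to −0.15, adjusted P = 0.0337). The call was lost without DMSO replicate 1 (adjusted P = 0.0909), DMSO replicate 2 (0.198), abemaciclib replicate 2 (0.136) or abemaciclib replicate 3 (0.0517), and by DESeq2 (0.0938), while the value stayed between −0.68 and −0.41 whichever library was left out.

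FBXW7 (chromosome 4, 152320544 to 152536092), a tumour suppressor that directs cyclin E and MYC to SCF, was at 102, 119 and 96.3 CPM with DMSO and at 111, 132 and 105 CPM with abemaciclib. The groups overlapped, and the log2FC was 0.13 ± 0.12 (95% interval −0.12 to 0.38, adjusted P = 0.498). With 1 library left out it lay between 0.026 (without abemaciclib replicate 2) and 0.22 (without DMSO replicate 2), and it was not called in any of these fits. The log2 ratio of SKP2 to FBXW7 went from −1.41 ± 0.15 (SD, n = 3) to −2.05 ± 0.32, a difference of −0.65 with no overlap between the groups (exact permutation test, P = 0.1, adjusted P = 0.1).

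CKS1B and CKS2 encode small, closely related proteins that bind cyclin-dependent kinases, and CKS1B is also the cofactor with which SKP2 recognises p27. CKS1B (chromosome 1, 154974653 to 154979251) was at 492, 495 and 424 CPM with DMSO and at 362, 346 and 369 CPM with abemaciclib. CKS2 (chromosome 9, 89311195 to 89316703) was at 76.9, 86.4 and 68.8 CPM with DMSO and at 42.1, 51.1 and 51.3 CPM with abemaciclib. Neither gene's groups overlapped. The log2FC of CKS1B was −0.39 ± 0.09 (adjusted P = 0.00278) and that of CKS2 was −0.68 ± 0.14 (adjusted P = 0.000653). The log2 ratio of CKS1B to CKS2 counts was 2.60 ± 0.08 (SD, n = 3) with DMSO and 2.90 ± 0.18 with abemaciclib, a difference of 0.30 at the smallest P of the design (exact permutation test, P = 0.1, adjusted P = 0.1). Without abemaciclib replicate 1 the difference was 0.20. The 7 processed copies of CKS1B held 0 counts with DMSO and 1 with abemaciclib.

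**Figure D3:**
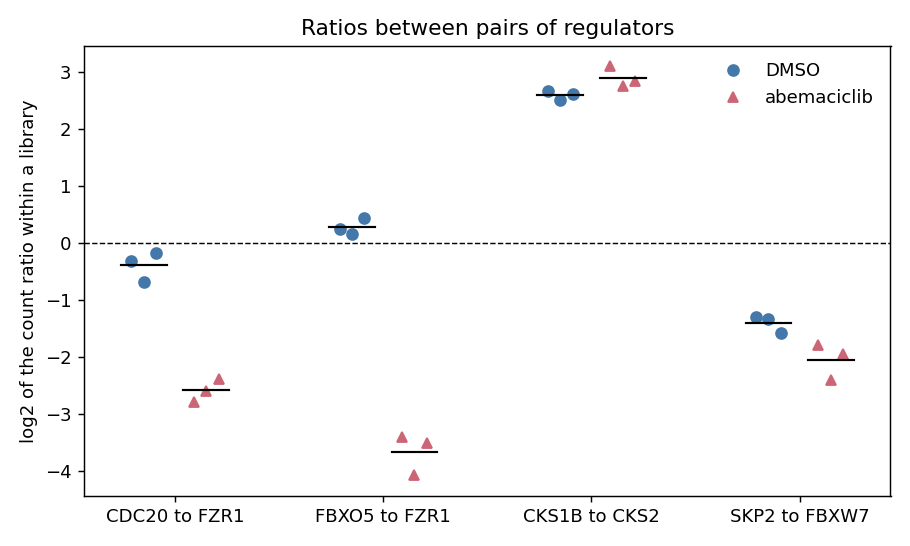
Log2 ratio of counts between pairs of regulators within each library, with 0.5 added to every count. Circles are DMSO libraries, triangles abemaciclib libraries and bars group means. In all 4 pairs the groups did not overlap, and the ratio to FZR1 dropped by 2.20 for CDC20 and by 3.95 for FBXO5. How often the groups separate for other gene pairs was not computed.

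Promoters were searched because cell cycle genes with a mitotic peak often carry a cell cycle genes homology region (CHR), a short element read by the MuvB and DREAM complexes, with CCAAT boxes of the factor NF-Y upstream of it. RefSeq promoter windows on GRCh38.p14, of 250 bases before the start site to 50 after, were found for all 10 genes, 16 windows in all because some genes have several start sites. The letters searched on both strands were TTTGAA and TTTAAA for CHR, CCAAT, and TTTCCCGC, TTTCGCGC, TTTGGCGC and TTTGCCGC for E2F. TTTAAA reads the same on both strands and was counted once. The 120 bases from 110 before the start site are shown for the 6 genes with a CHR match close to the start site and, for contrast, for SKP2 and FZR1. Capitals mark CHR matches (TTTGAA, its reverse complement TTCAAA, or TTTAAA) and CCAAT matches (CCAAT or its reverse complement ATTGG, which run together where they overlap), and each sequence reads 5′ to 3′ on the strand of the gene.
PTTG1, chr5:160421745-160421864, plus strand: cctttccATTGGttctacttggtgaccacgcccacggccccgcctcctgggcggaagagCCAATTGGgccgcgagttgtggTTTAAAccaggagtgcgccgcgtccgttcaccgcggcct
FBXO5, chr6:152983032-152983151, minus strand: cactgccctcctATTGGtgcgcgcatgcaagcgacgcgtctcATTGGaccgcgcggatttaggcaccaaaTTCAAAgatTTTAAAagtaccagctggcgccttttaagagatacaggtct
CDC20, chr1:43358871-43358990, plus strand: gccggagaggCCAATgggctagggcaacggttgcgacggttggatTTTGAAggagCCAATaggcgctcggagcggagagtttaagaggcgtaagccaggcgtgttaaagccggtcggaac
CCNF, chr16:2429337-2429456, plus strand: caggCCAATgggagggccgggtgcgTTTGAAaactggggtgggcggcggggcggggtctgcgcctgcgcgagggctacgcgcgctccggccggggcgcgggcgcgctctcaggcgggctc
CKS2, chr9:89311085-89311204, plus strand: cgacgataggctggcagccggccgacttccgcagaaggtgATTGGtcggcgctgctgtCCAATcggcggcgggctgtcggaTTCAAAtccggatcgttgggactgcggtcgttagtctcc
CKS1B, chr1:154974571-154974690, plus strand: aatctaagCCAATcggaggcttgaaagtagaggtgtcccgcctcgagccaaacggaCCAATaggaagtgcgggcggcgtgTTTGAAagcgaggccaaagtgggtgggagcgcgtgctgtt
SKP2, chr5:36152001-36152120, plus strand: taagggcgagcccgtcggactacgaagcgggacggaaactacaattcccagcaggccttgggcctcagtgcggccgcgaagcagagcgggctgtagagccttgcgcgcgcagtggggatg
FZR1, chr19:3506201-3506320, plus strand: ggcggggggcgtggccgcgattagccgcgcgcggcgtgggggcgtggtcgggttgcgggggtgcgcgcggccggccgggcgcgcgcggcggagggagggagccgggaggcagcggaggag

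CHR letters occurred in 9 of the 10 genes (10 of 16 windows), against 24.0% of the 35116 promoter windows of all genes. CCAAT occurred in 8 genes (9 windows), against 34.6% of all windows, and both together in 8 genes (9 windows), against 9.27%. None of the 4 E2F spellings occurred in any of the 16 windows, and 3.31% of all windows held one. That says only that these letters are not in these windows.

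The CHR matches lay at unlike distances from the start site. In CDC20, PTTG1, FBXO5, CCNF, CKS1B and CKS2 a CHR match began within 100 bases before a start site and had a CCAAT match upstream of it, an arrangement in 2.64% of all windows. It began 65 bases before the start site in CDC20, 29 in PTTG1 (84 at the other of its 2 start sites), 40 and 31 in FBXO5, 85 in CCNF, 30 in CKS1B and 29 in CKS2. In CDC27 the match lay 40 bases after the start site, in FZR1 226 bases and in FBXW7 210 bases before it, and SKP2 had no match of any kind. FBXO5 had the arrangement at the inner of its 2 start sites only. This distance was chosen after the matches and the fold changes had been seen, so it is a description: all 6 genes with it fell, SKP2 fell without it, and the 3 genes that were not called lacked it. A match of letters is not evidence of a bound factor.

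The partners and substrates of both ligases were then examined as lists, by counts of called genes and medians beside those of all genes tested (13.3% lower, 12.5% higher, median −0.00). The core of APC/C was called about as often as all genes. Of its 13 other subunits 11 were tested, 1 fell, 1 rose, and the median log2FC was 0.18. ANAPC15, needed to turn over checkpoint-bound CDC20, went from 50.7 ± 9.26 CPM (SD, n = 3) to 31.3 ± 1.23 CPM, a log2FC of −0.69 ± 0.17 (adjusted P = 0.003). The small subunit ANAPC13 had a log2FC of 0.41 ± 0.14 (adjusted P = 0.0321), a call that was lost in 5 of the 6 fits that left out 1 library (all but the one without abemaciclib replicate 1), with adjusted P values of up to 0.116. The RING subunit ANAPC11 was not called (log2FC −0.12 ± 0.10), and it overlaps PCYT2 on the opposite strand at its 3′ end.

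Of the 3 E2 enzymes that supply APC/C with ubiquitin 2 fell, with a list median of −2.41. UBE2C, which starts ubiquitin chains on its substrates, went from 339 ± 12.01 CPM (SD, n = 3) to 40.3 ± 2.34 CPM, a log2FC of −3.07 ± 0.11 (adjusted P = 2.41e-18). UBE2S, which extends the chains, had a log2FC of −2.41 ± 0.57 (adjusted P = 0.00222), with 8, 3 and 3 counts in the abemaciclib libraries. UBE2D1, an E2 of many ligases, was not called (log2FC 0.55 ± 0.29).

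Among the 7 tested genes of the spindle checkpoint, which restrains CDC20, and of its regulators, 5 fell, 0 rose and the median log2FC was −0.73. The kinase BUB1 fell by 2.18 ± 0.26 on the log2 scale, the CDC20-binding BUB1B fell by 1.74 ± 0.20 and the kinase TTK fell by 1.35 ± 0.29, all past the threshold, and their partner BUB3 fell by 0.73 ± 0.13. All 19 tested substrates of APC/C fell, with a median of −2.53 and the smallest fall at −0.96. AURKB, the kinase of the chromosomal passenger complex, went from 72.0 ± 9.23 CPM (SD, n = 3) to 0.647 ± 0.227 CPM, with 3, 2 and 2 counts in the treated libraries, so that its log2FC of −6.75 ± 0.30 rests on few counts. With 1 to 10 counts in each treated library, CDCA3, cyclin A2 (CCNA2) and the ribonucleotide reductase subunit RRM2 had log2FC values of −5.55 ± 0.26, −5.17 ± 0.33 and −4.90 ± 0.32. The 3′ end of CCNA2 overlaps EXOSC9 on the opposite strand, so its reads are uncertain. Among separase and the 7 listed genes of cohesin and its regulators, 4 fell, 0 rose and the median was −0.40. Separase itself (ESPL1), which securin holds in check, fell by 3.68 ± 0.44 (1, 6 and 7 counts in the treated libraries), the cohesin subunit it cuts, RAD21, fell by 1.70 ± 0.12, and the cohesin subunits SMC3 and SMC1A had log2FC values of −0.76 ± 0.11 and −0.40 ± 0.10.

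**Figure D4:**
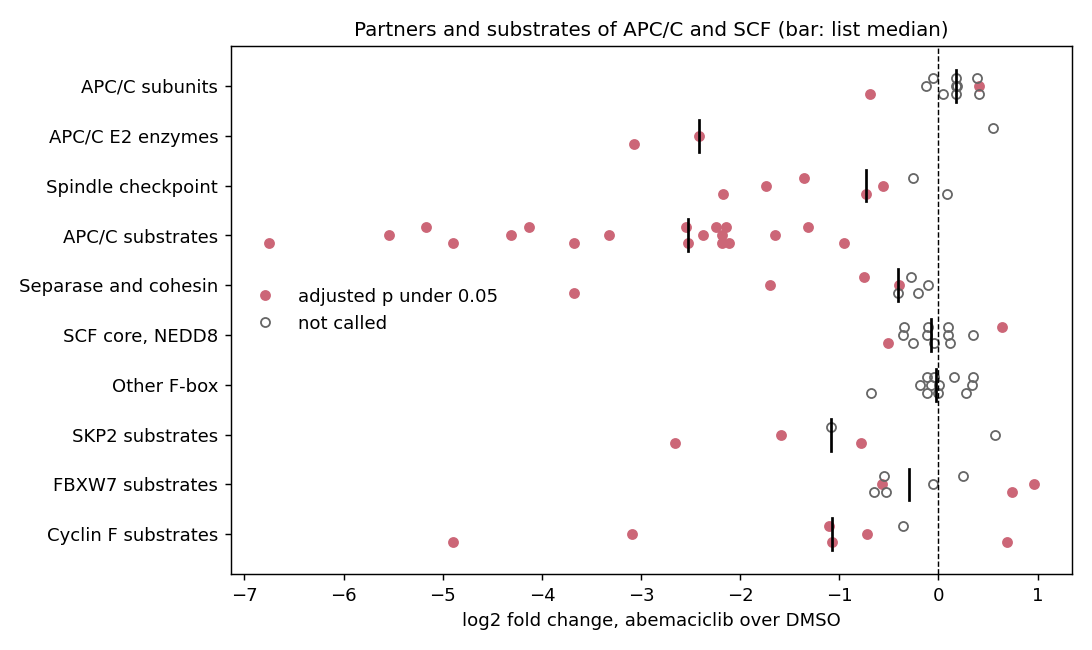
Log2 fold change of every tested gene in the lists of partners and substrates, abemaciclib over DMSO (n = 3 libraries in each group). Filled red points passed an adjusted P of 0.05, open points did not, and bars are list medians. All 19 tested APC/C substrates lie below 0, whereas the 11 tested APC/C subunits and the 12 other F-box genes have medians of 0.18 and −0.02.

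The core of SCF and the enzymes of its activation by NEDD8 were likewise called about as often as all genes. Of the 12 genes 1 fell, 1 rose and the median was −0.08. SKP1, the adaptor between cullin and F-box, rose by 0.64 ± 0.10 on the log2 scale (adjusted P = 1.52e-05), from 178 ± 12.2 CPM to 278 ± 14.5 CPM (SD, n = 3). RBX1, the RING subunit, fell by 0.51 ± 0.12 (adjusted P = 0.00272), and NEDD8 was not called (log2FC 0.09 ± 0.11). Of 12 other F-box genes 0 fell and 0 rose, at an unadjusted P under 0.05 too, with a median of −0.02, which turned to 0.02 without DMSO replicate 2 and to 0.04 without abemaciclib replicate 2. DESeq2 also called 0. Those with the highest levels, FBXO7, FBXO11 and FBXL5, had log2FC values of −0.18 ± 0.13, 0.01 ± 0.20 and −0.08 ± 0.20.

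The transcripts of proteins that SCF receptors destroy did not share 1 direction. Of the 5 tested SKP2 substrates 3 fell, 0 rose and the median was −1.08: the CDK inhibitor CDKN1A (p21) by 2.66 ± 0.15, the replication licensing factor CDT1 by 1.59 ± 0.14 and CDKN1B (p27) by 0.79 ± 0.15 on the log2 scale. That median was the value of ORC1, which was not called (SE 0.57, adjusted P = 0.176). RBL2 lay the other way, at 0.57 ± 0.22, and was not called either (adjusted P = 0.0579). Of the 8 listed for FBXW7, 1 fell, 2 rose and the median was −0.30, beside 13.3% lower and 12.5% higher of all genes tested. With 8 genes, such counts say little about FBXW7 substrates as a group. JUN rose by 0.97 ± 0.13 and the sterol regulator SREBF1 by 0.74 ± 0.13, with SREBF1 overlapping RAI1 on the opposite strand at its 3′ end, while KLF5 fell by 0.57 ± 0.17 (adjusted P = 0.0144), a call lost without DMSO replicate 2 (adjusted P = 0.172) or abemaciclib replicate 2 (0.0626). Of the 7 tested cyclin F substrates 5 fell, 1 rose and the median was −1.07. Besides RRM2, the E2F family members E2F2 and E2F1 fell by 3.09 ± 0.26 and 1.07 ± 0.15 and the centriole protein CCP110 by 1.10 ± 0.16. E2F3, singled out after its values were seen, was the one that rose, by 0.69 ± 0.19 (adjusted P = 0.00613), and was not called without DMSO replicate 3 (adjusted P = 0.0576). These are transcript levels, and protein stability, on which both ligases act, was not measured here.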

How the data were processed

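RNA was analysed from 6 libraries of ZR-75-1 cells, grouped by their labels. Per the methods and the submitters' processing notes, the authors made 3′ mRNA libraries (QuantSeq FWD), trimmed single-end reads (BBDuk), mapped them to hg38 (STAR 2.7.5b) and counted reads per gene (featureCounts 2.0.1). The deposited values are raw counts, and the strand setting is not given in the sources used here. Symbols matched 60401 of 60656 identifiers, and 40227 genes had 0 counts throughout. Gene coordinates come from a GENCODE annotation of the same assembly, GRCh38. RB1 knockout cells were not analysed here.

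Counts were tested with edgeR 4.0.16 in R 4.3.3 (filterByExpr, TMM, glmQLFit and glmQLFTest, adjusted P under 0.05 over 10863 genes, no covariate). The SE is the log2FC divided by the square root of F. The biological coefficient of variation was 13.2%. Counts were simulated with log2 changes of at least 1 in size and the same relative scatter for every gene. There, 157 of 182 changed genes tested were called (86.3%), and 7 unchanged genes. Smaller changes were not simulated. Named are the 10 regulators, MKI67 and, per list, up to 4 called genes with the largest change, or else the most abundant until 3 are named. E2F3, ORC1 and RBL2 were added after their values were seen. The regulators and lists were chosen with earlier results of these data known. Alternatives were DESeq2 1.42.0, its size factors, total counts, other filters, a replicate block, each library left out, and a minimum log2FC of 1. Adding CDC20P1 to CDC20 was chosen after seeing the data.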

Additional observations from a re-analysis of the deposited data

How the results depend on the processing

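Of 1011 values recomputed under alternatives, 941 kept their direction and side of the threshold, or stayed within the limits set for counts and medians. Among the 10 regulators, the fall of SKP2 was below the threshold by DESeq2 (−0.53, adjusted P = 0.0938) and with a replicate block (−0.53, adjusted P = 0.0568), and its log2FC ranged from −0.68 to −0.41 with 1 library left out. CDC27 ranged from −0.46 to −0.13, and FZR1, which was not called in any fit, from −0.14 to 0.16. The cause was not tested. With CDC20P1 added, CDC20 stayed at −2.24.

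A minimum log2FC of 1 leaves fewer genes by construction: 4 regulators, and 645 lower and 322 higher of all genes. It left 3 checkpoint and 2 separase and cohesin genes lower, and 0 APC/C subunits, SCF core genes and FBXW7 substrates either way. It also left 0 cyclin F substrates higher. ANAPC13, the only APC/C subunit called higher, was lost by DESeq2, without a filter and with the replicate block (0 called). A minimum of 10 counts in every library removed low genes, which left 1 E2 enzyme lower with a list median of −1.27 and moved the APC/C substrate median to −2.25. The checkpoint median was −0.64 by DESeq2 and −0.64 without a filter.

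With 1 library left out, the median of the regulators ranged from −0.72 to −0.50, and all genes called numbered 1132 to 1529 lower and 981 to 1412 higher. List medians ranged from −0.85 to −0.67 for the checkpoint, −0.50 to −0.30 for separase and cohesin, −0.15 to −0.027 for the SCF core, −0.07 to 0.04 for the other F-box genes, −1.58 to −0.84 for SKP2 substrates and −0.33 to −0.18 for FBXW7 substrates. Counts ranged from 0 to 1 for APC/C subunits higher, 1 to 2 for SCF core genes lower, 0 to 1 for SKP2 substrates higher, 0 to 1 for FBXW7 substrates lower and 0 to 1 for cyclin F substrates higher. Of single genes that were not called, NEDD8 ranged from −0.0039 to 0.20 and FBXO11 from −0.11 to 0.21.

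Same-numbered libraries of the groups did not deviate together (correlations of −0.04, 0.01 and −0.08 over genes). Such values cannot show whether same-numbered libraries were made together, so any pairing is not known. The replicate block gave 6 regulators lower, 1280 genes lower and 1139 higher, and the paired sign-flip test of the ratios cannot go below 0.25. FBXO11 turned to −0.0097 with total counts and −0.0043 with the block, against 0.01. Depth limits what can be said of AURKB, CCNA2, UBE2S, ESPL1, RRM2 and CDCA3, whose treated libraries held 1 to 10 counts each.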
